A study of Arabidopsis thaliana with 9 samples.

Results

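The WRKY transcription factors of Arabidopsis thaliana were followed as a family of 59 genes among the 33602 gene models counted in the deposited tables. Members were taken by gene identifier under a rule of family membership that uses no measured value, although the family was picked for study with earlier results of these data known. All 59 were matched by name or synonym in the RefSeq annotation of TAIR10.1. A further 13 genes that RefSeq names as WRKY genes are not members and served as a comparison. Expression was measured by sequencing polyadenylated RNA from seedlings grown in vitro, in 9 libraries. Seedlings came from plants whose label gives an RNAi knock-down of AT1G67105 (RNAi-ASCO), from plants labelled as overexpressing AT1G67105 (35S-ASCO, named for the viral 35S promoter) and from wild type (WT), with 3 libraries labelled as biological replicates in each. AT1G67105 is the gene of the long noncoding RNA ASCO. The 35S-ASCO and WT libraries and replicate 3 of RNAi-ASCO are labelled as 16-day seedlings, whereas replicates 1 and 2 of RNAi-ASCO are labelled as 4-day seedlings. The labels do not say how many independent transgenic lines stand behind each genotype, nor which plants were pooled.

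WRKY proteins carry a DNA-binding domain named after the amino acids at its core, and most bind the W box, the word TTGAC followed by C or T. Plants use them in immunity, senescence, nutrient supply and development, and many of their genes hold W boxes in their own promoters, so that members regulate each other. The family is divided into group I, with a pair of WRKY domains, group II, with its subgroups IIa to IIe, and group III, whose zinc finger differs from that of the others.

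The promoters of 5 members are shown as examples with and without W-box words among genes described below: WRKY33, WRKY53 and WRKY30 hold several, and WRKY70 and WRKY39 hold none. No rule is drawn from them. WRKY33, WRKY70 and WRKY39 all passed a test against WT. Levels of 7 members spread widely in 35S-ASCO. Of these, WRKY40, WRKY46 and WRKY50 hold 0 words, WRKY55 holds 1, WRKY41 and WRKY53 hold 2 each and WRKY30 holds 3. Whether words go with level or spread was not tested. Each promoter shown is the stretch of 250 bases before the RefSeq gene start in TAIR10.1. It is written 5′ to 3′ on the strand of the gene. The words TTGACC and TTGACT, or the same words on the other strand (GGTCAA and AGTCAA), are in capitals.
WRKY33 (chr2:16107985-16108234, forward strand): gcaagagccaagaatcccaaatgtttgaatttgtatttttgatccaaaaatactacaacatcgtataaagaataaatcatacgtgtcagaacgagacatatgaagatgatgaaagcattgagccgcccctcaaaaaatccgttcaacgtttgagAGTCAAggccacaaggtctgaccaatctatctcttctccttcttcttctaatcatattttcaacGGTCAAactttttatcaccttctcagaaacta
WRKY53 (chr4:12393983-12394232, reverse strand): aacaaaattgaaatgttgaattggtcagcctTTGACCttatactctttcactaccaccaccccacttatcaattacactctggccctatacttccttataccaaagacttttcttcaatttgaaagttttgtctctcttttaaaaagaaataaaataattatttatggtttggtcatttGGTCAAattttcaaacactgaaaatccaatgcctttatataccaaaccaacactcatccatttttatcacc
WRKY30 (chr5:8154711-8154960, reverse strand): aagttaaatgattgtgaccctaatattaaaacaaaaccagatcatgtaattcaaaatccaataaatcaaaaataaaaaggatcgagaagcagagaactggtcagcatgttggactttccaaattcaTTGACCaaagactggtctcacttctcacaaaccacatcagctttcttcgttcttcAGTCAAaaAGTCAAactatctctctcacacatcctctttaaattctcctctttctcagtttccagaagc
WRKY70 (chr3:20910624-20910873, reverse strand): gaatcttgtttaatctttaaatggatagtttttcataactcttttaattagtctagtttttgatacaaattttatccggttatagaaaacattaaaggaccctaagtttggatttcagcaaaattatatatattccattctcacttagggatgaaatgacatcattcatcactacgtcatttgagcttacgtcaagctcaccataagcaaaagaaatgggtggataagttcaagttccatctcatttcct
WRKY39 (chr3:1268379-1268628, reverse strand): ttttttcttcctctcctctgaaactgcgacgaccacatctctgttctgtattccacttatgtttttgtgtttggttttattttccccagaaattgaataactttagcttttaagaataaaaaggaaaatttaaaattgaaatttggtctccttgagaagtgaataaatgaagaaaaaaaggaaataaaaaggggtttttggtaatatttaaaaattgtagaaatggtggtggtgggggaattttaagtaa
The WRKY33 words begin 96 and 32 bases before the start, both on the other strand. WRKY53 has words at 219 and 71 bases, and WRKY30 has 3 words at 124, 69 and 61 bases. Across the family, 21 of 59 members (35.6%) held at least 1 word in this window, against 28.5% of 26711 protein-coding genes. At least 2 words stood before 9 members (15.3%) and 6.20% of protein-coding genes. Those 9 members were WRKY15, WRKY17, WRKY29, WRKY30, WRKY32, WRKY33, WRKY41, WRKY45 and WRKY53. No words overlapped in these windows. A word is a match of letters and not a measured binding site, and its absence says only that these letters are not in the window.

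The libraries held between 27044702 (WT replicate 1) and 126355312 (35S-ASCO replicate 1) counted read pairs, so that a floor of 3 pairs stood at 0.0237 to 0.111 CPM, the unit of level used below, which is read pairs scaled to a common library total with TMM factors. AT1G67105 itself had 16.9, 19.5 and 22.9 CPM in the RNAi-ASCO-labelled libraries, 3539, 3657 and 3653 CPM in 35S-ASCO, and 6.54, 3.65 and 2.48 CPM in WT. The level counted at this gene model was therefore above WT in both lines. The lower level that a knock-down label would lead to was not seen, and directions reported for that line are limited by this. Whether these pairs came from the gene itself or from a transgene was not tested. Leaf genes were high in every library, with RBCS1A, LHCB1.3 and LHCB2.1 summing to between 16849 and 20276 CPM, and the root genes PIN2, EXPA7, COBL9 and PRP3 summed to between 45.8 and 67.7 CPM. Flower genes (AP1, AP3, AG) and seed genes (SESA1, CRU1) stayed at or under 0.295 CPM in sum. Among leaf and root genes, LHCB2.1 was higher (log2 fold change 1.42, adjusted p = 0.0206) and EXPA7 lower (-0.47, adjusted p = 0.038) than WT in the RNAi-ASCO-labelled libraries by edgeR. Of all genes tested, 6.96% were higher and 4.82% lower there at an adjusted p under 0.05. Both lists had 0 calls without the 4-day libraries and in at least 1 fit with a library omitted. In 35S-ASCO 0 of these 7 genes passed in edgeR, where 2 leaf genes reached an unadjusted p under 0.05 and 1 passed in DESeq2. The part of these genes in the results below was not tested. Whole seedlings hold many cell types, so fewer cells of a type and less RNA per cell cannot be told apart in any value below. P-values measure the spread between libraries labelled as biological replicates.

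Together the 59 members reached 1014, 999 and 1064 CPM in the RNAi-ASCO-labelled libraries, 1193, 1122 and 975 CPM in 35S-ASCO, and 892, 914 and 924 CPM in WT. The summed levels of both lines lay above all 3 WT libraries. The groups that differed most were I and III. Group I summed to 355, 379 and 360 CPM in the RNAi-ASCO-labelled libraries, 438, 357 and 321 CPM in 35S-ASCO, and 301, 308 and 308 CPM in WT. Group III summed to 169, 108 and 184 CPM in the RNAi-ASCO-labelled libraries, 184, 211 and 117 CPM in 35S-ASCO, and 58.2, 76.4 and 70.3 CPM in WT. Group IId went the other way in one line, with 255, 256 and 265 CPM in the RNAi-ASCO-labelled libraries, all below WT, against 310, 278 and 275 CPM in 35S-ASCO and 284, 280 and 289 CPM in WT. WRKY33 made up most of the group I difference and WRKY70 most of the group III difference.

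**Figure D1:**
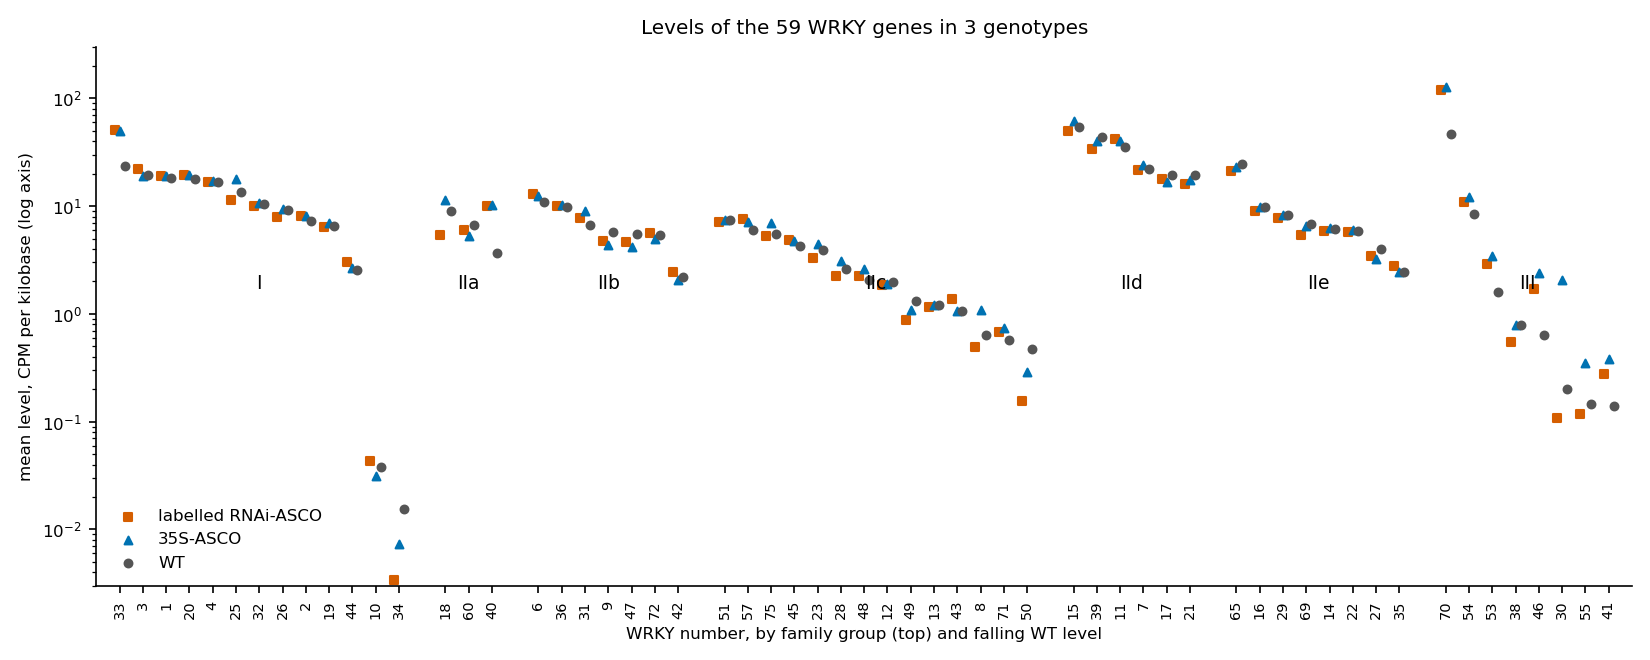
Mean level of each of the 59 WRKY genes in CPM per kilobase of gene model (log axis), over 3 libraries of each genotype, with genes grouped by family group and ordered by WT level. The members of group IId sit between 19.3 and 54.5 CPM per kilobase in WT, and WRKY10 and WRKY34 lie far below all other members.

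Levels of different genes were compared per kilobase of gene model. In WT the highest members were WRKY15 at 54.5, WRKY70 at 47.1, WRKY39 at 44.2 and WRKY11 at 35.3 CPM per kilobase. WRKY15, WRKY39 and WRKY11 belong to group IId, whose proteins carry a calmodulin-binding stretch. The WT level of WRKY70 exceeded that of WRKY39 by less than the SD of WRKY70, so the order of these neighbours is not resolved. All 6 genes of group IId lay between 19.3 CPM per kilobase (WRKY21) and 54.5 (WRKY15). Group IIc, the most numerous with 14 members, lay lower, between 0.474 CPM per kilobase for WRKY50 and 7.42 for WRKY51. Group IIe ranged from 2.44 (WRKY35) to 24.7 CPM per kilobase (WRKY65), and group IIb from 2.19 (WRKY42) to 10.9 (WRKY6). The 3 genes of group IIa lay between 3.71 (WRKY40) and 9.07 CPM per kilobase (WRKY18). Groups I and III were the widest. Group III reached down to 0.141 CPM per kilobase for WRKY41. Averaged over all 9 libraries, the 3 highest members were WRKY70 at 97.9, WRKY15 at 55.3 and WRKY33 at 41.4 CPM per kilobase.

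A pair of members of group I were at or near the floor. WRKY34, known from pollen, had at most 4 pairs in any library, and WRKY10, known as MINI3 from the endosperm of the seed, had at most 7. Both were removed by the filter on low counts, so 57 of 59 members were tested. The seed and flower genes were near the floor in the same libraries. Members known from other settings were detected: WRKY44 (TTG2, known from trichomes and the seed coat) averaged 5.45 ± 0.510 CPM in the RNAi-ASCO-labelled libraries, 4.86 ± 0.243 CPM in 35S-ASCO and 4.66 ± 0.228 CPM in WT (SD, n = 3 each). WRKY16 and WRKY19, whose proteins join a WRKY domain to an immune-receptor architecture, averaged 41.5 ± 1.65 and 38.6 ± 2.73 CPM in WT (SD, n = 3).

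The line labelled as a knock-down was first set against WT. In the RNAi-ASCO-labelled libraries, 6 of 57 tested members (10.5%) passed the test, which was edgeR's quasi-likelihood test at an adjusted p under 0.05 over 22719 genes. Over all genes tested the share was 11.8%, so the family's share was close to the background. WRKY33, WRKY70 and WRKY6 rose (3 of 57, against 6.96% of all genes), and WRKY21, WRKY39 and WRKY69 fell (3 of 57, against 4.82%). Groups did not overlap at 24 members (42.1%, against 32.4% of all genes). Of these, 13 had higher levels in the RNAi-ASCO-labelled libraries (22.8%, against 16.9% of all genes) and 11 had lower levels (19.3%, against 15.5%). The median log2 fold change of the members was -0.05 and that of all genes -0.01. The median absolute log2 fold change was 0.22 for the members and 0.14 for all genes.

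WRKY33 (AT2G38470, chr2:16108235-16110766) is known as a regulator of camalexin synthesis and of resistance to necrotrophic fungi, and its protein is a substrate of the kinases MPK3 and MPK6. It had 92.9, 106 and 92.7 CPM in the RNAi-ASCO-labelled libraries, against 45.7, 45.5 and 42.3 CPM in WT. All 3 libraries of the line stood well above all 3 WT libraries, and both groups were tight. The log2 fold change was 1.13 (SE 0.277 and adjusted p = 0.0286 by edgeR). Omitting any single library of either group ended this call, while the log2 fold change stayed at 1.06 or more.

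WRKY70 (AT3G56400, chr3:20908711-20910623), known for promoting salicylic acid responses and holding back jasmonic acid responses, had 144, 87.4 and 164 CPM in the RNAi-ASCO-labelled libraries, against 43.4, 58.1 and 55.6 CPM in WT. The groups did not overlap, although replicate 2 of the line was nearer to WT than the other 2. Its log2 fold change was 1.33 (SE 0.259 and adjusted p = 0.0117 by edgeR), and the call was lost without WT replicate 1. Its closest relative by background knowledge, WRKY54, did not pass, with 17.1, 12.8 and 13.5 CPM in the RNAi-ASCO-labelled libraries and 11.3, 13.6 and 9.36 CPM in WT. That comparison overlapped, at a log2 fold change of 0.33 (SE 0.181 and adjusted p = 0.269 by edgeR).

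WRKY6 (AT1G62300, chr1:23016569-23019494) acts in senescence and represses the phosphate exporter gene PHO1. It had 24.2, 27.0 and 26.6 CPM in the RNAi-ASCO-labelled libraries, against 22.5, 21.9 and 20.8 CPM in WT. The groups were close but did not overlap. On the log2 scale the difference was 0.26 (SE 0.07 and adjusted p = 0.0418 by edgeR), and the call was lost with upper-quartile scaling and without any one of the 6 libraries compared. PHO1 averaged 119 ± 8.95 CPM in the RNAi-ASCO-labelled libraries and 107 ± 9.01 CPM in WT (SD, n = 3 each; edgeR adjusted p = 0.236).

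The 3 members that fell did so by small amounts. WRKY39 (AT3G04670, chr3:1266056-1268378), a group IId member known from heat stress, had 61.9, 61.2 and 62.9 CPM in the RNAi-ASCO-labelled libraries, against 80.9, 81.7 and 79.3 CPM in WT. Its libraries were the tightest among the members that passed, and the groups were far apart relative to that spread. The log2 fold change was -0.38 (SE 0.043 and adjusted p = 0.00102 by edgeR), and leaving out any one library left it past the threshold. WRKY21 (AT2G30590, chr2:13033418-13035797), of the same group, had 28.9, 27.9 and 31.7 CPM in the RNAi-ASCO-labelled libraries, against 36.1, 36.4 and 34.7 CPM in WT. Its groups did not overlap either, at a log2 fold change of -0.27 (SE 0.058 and adjusted p = 0.0169 by edgeR), and the call was lost without RNAi-ASCO replicate 1, RNAi-ASCO replicate 2 or WT replicate 1. WRKY69 (AT3G58710, chr3:21714911-21716916), of group IIe, had 6.63, 5.52 and 6.46 CPM in the RNAi-ASCO-labelled libraries, against 7.53, 8.11 and 8.04 CPM in WT. Its log2 fold change was -0.35 (SE 0.094 and adjusted p = 0.0399 by edgeR). This was the least stable call, lost in 7 of 9 fits that left out one library, namely each of the 6 compared and 35S-ASCO replicate 3, and also with only the 6 libraries compared (adjusted p = 0.0592). The other members of group IId did not pass, and WRKY11 stood at a log2 fold change of 0.26 (SE 0.077 and adjusted p = 0.0588 by edgeR), the opposite side from WRKY39 and WRKY21.

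**Figure D2:**
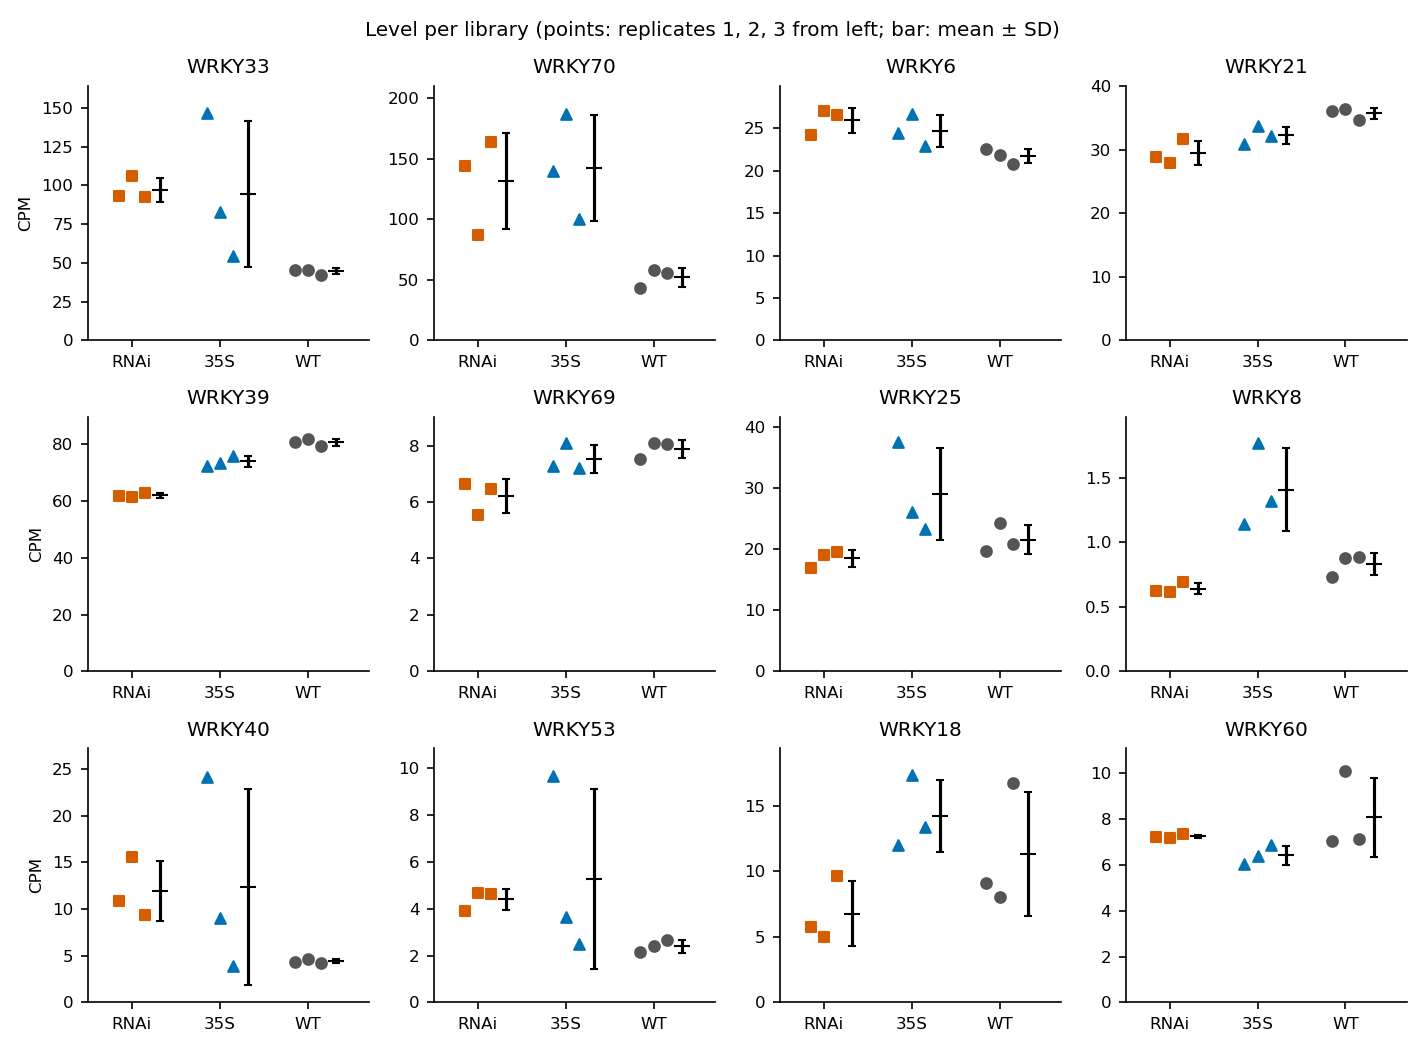
Level in CPM of 12 WRKY genes in each library, with replicates 1 to 3 from left to right and the mean ± SD (n = 3) beside them. WRKY39 separates all 3 genotypes with little spread, whereas WRKY33, WRKY40 and WRKY53 range widely within 35S-ASCO, with replicate 1 highest.

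Replicates 1 and 2 of RNAi-ASCO carry a label of 4 days and WT one of 16 days. Without these 2 libraries, which leaves 1 library of the line and assumes that it varies like the other groups, none of the 57 members passed in edgeR (6 reached an unadjusted p under 0.05). The sizes changed little for some members and more for others: the log2 fold change was 1.06 for WRKY33, 1.64 for WRKY70, 0.29 for WRKY6, -0.36 for WRKY39, -0.29 for WRKY69 and -0.17 for WRKY21. The library labelled 16 days lay on the same side of all 3 WT libraries as the 4-day libraries for each of these 6 genes. The 6 genes were picked by a test that included this library, so its side is partly set by that choice. How much of each difference goes with the age label cannot be told apart from the genotype with a single 16-day library. The share of all genes was not recomputed for the fit without the 4-day libraries.

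The line that overexpresses AT1G67105 was then set against WT. Only WRKY70 passed in 35S-ASCO, 1 of 57 tested members (1.75%), against 1.67% of all genes and 1.36% with a higher level. With a lower level, 0 of 57 passed in edgeR and 0 in DESeq2 (0.313% of all genes in edgeR), and 6 had an unadjusted p under 0.05. WRKY70 had 140, 187 and 99.97 CPM in 35S-ASCO, against 43.4, 58.1 and 55.6 CPM in WT. All 3 libraries of the line stood above all 3 WT libraries. The log2 fold change was 1.44 (SE 0.259 and adjusted p = 0.0326 by edgeR). This call was lost without 35S-ASCO replicate 1, 35S-ASCO replicate 2, WT replicate 1 or WT replicate 3, without the 4-day libraries (adjusted p = 0.0567) and in a fit of only the 6 libraries compared. Groups did not overlap at 11 members (19.3%, against 21.9% of all genes), 5 with higher and 6 with lower levels in 35S-ASCO.

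In this comparison more members stood at a low unadjusted p than genes in general, without passing the adjustment. Of the members in 35S-ASCO against WT, 23 of 57 members (40.4%) had an unadjusted p under 0.05 in edgeR, against 17.4% of all genes. They were 17 with higher levels (29.8%, against 10.5% of all genes) and 6 with lower levels (10.5%, against 6.94%). Over both directions together the other comparisons showed no such excess. The shares were 26.3% of members against 27.5% of all genes in the RNAi-ASCO-labelled libraries against WT. In 35S-ASCO against the RNAi-ASCO-labelled libraries they were 22.8% against 22.9%. By direction, that last comparison had 12 of 57 members with higher levels (21.1%, against 11.6% of all genes). Only 1 of 57 had a lower level there (1.75%, against 11.3%). Without 35S-ASCO replicate 1 the number in 35S-ASCO against WT was 10, and the share of all genes was not recomputed for that fit. Of the 57 members 37 (64.9%) had a log2 fold change above 0, against 47.9% of all genes, and the median was 0.06 for members and -0.01 for all genes.

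Several members with large log2 fold changes in 35S-ASCO were highest in replicate 1 of that line. WRKY33 had 147, 82.6 and 54.7 CPM in 35S-ASCO, against 45.7, 45.5 and 42.3 CPM in WT. All 3 libraries were above WT, but replicate 3 only by a little, and the log2 fold change of 1.09 did not pass (SE 0.276 and adjusted p = 0.0812 by edgeR). Without 35S-ASCO replicate 1 it was 0.62 (adjusted p = 0.103), and without 35S-ASCO replicate 3 it was 1.37 (adjusted p = 0.0105). WRKY40, a repressor that dampens immune responses and is rapidly induced by stress, had 24.1, 9.02 and 3.88 CPM in 35S-ASCO, against 4.37, 4.66 and 4.27 CPM in WT. Its replicate 3 lay below all 3 WT libraries. On the log2 scale the difference was 1.49 (SE 0.531 and adjusted p = 0.186 by edgeR) and 0.48 without replicate 1. WRKY53, known as a driver of leaf senescence, had 9.63, 3.64 and 2.502 CPM in 35S-ASCO, against 2.13, 2.38 and 2.68 CPM in WT, and the groups overlapped. The fitted log2 fold change was 1.15 (SE 0.416 and adjusted p = 0.195 by edgeR) and 0.31 without replicate 1. Without 35S-ASCO replicate 3, 4 members passed, namely WRKY33, WRKY40, WRKY53 and WRKY70.

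**Figure D3:**
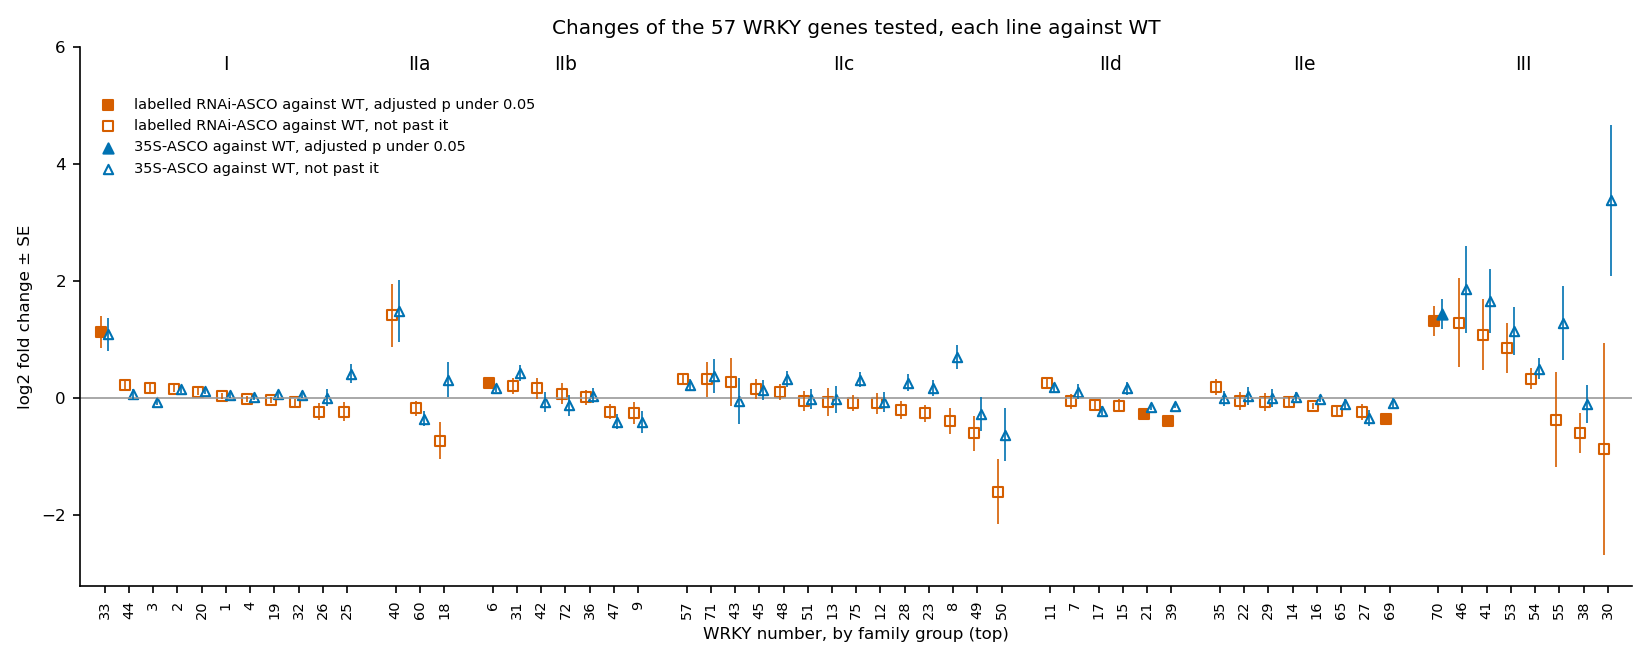
Log2 fold change ± SE of the 57 tested WRKY genes for the RNAi-ASCO-labelled libraries (squares) and 35S-ASCO (triangles), each against the same 3 WT libraries, by family group. Filled symbols passed an adjusted p of 0.05: 6 for the RNAi-ASCO-labelled libraries and WRKY70 alone for 35S-ASCO. Error bars are widest in group III.

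Both comparisons share the WT libraries, so values of the 2 lines are given side by side without a measure of their likeness. The group IIa genes WRKY18, WRKY40 and WRKY60, whose proteins pair with each other and act partly redundantly, were measured together. WRKY40 had 10.9, 15.5 and 9.34 CPM in the RNAi-ASCO-labelled libraries, above all 3 WT libraries, at a log2 fold change of 1.42 (SE 0.538 and adjusted p = 0.118 by edgeR). That value passed in a fit of only the 6 libraries compared and without 35S-ASCO replicate 1 or 35S-ASCO replicate 3. WRKY53 had 3.89, 4.65 and 4.63 CPM in the RNAi-ASCO-labelled libraries, also above all 3 WT libraries, at a log2 fold change of 0.87 (SE 0.426 and adjusted p = 0.221 by edgeR), and passed with only the 6 libraries compared and without 35S-ASCO replicate 1. WRKY18 had 5.77, 4.96 and 9.61 CPM in the RNAi-ASCO-labelled libraries, 12.0, 17.3 and 13.4 CPM in 35S-ASCO, and 9.11, 8.04 and 16.7 CPM in WT. WT replicate 3 was high, and both lines overlapped WT (log2 fold change -0.72, edgeR adjusted p = 0.165 for the RNAi-ASCO-labelled libraries; 0.32, edgeR adjusted p = 0.629 for 35S-ASCO). WRKY60 had 7.22, 7.16 and 7.32 CPM in the RNAi-ASCO-labelled libraries, 6.04, 6.36 and 6.85 CPM in 35S-ASCO, and 7.05, 10.1 and 7.12 CPM in WT. It stood just below all WT libraries in 35S-ASCO and did not pass in either line, at log2 fold changes of -0.17 (edgeR adjusted p = 0.445) and -0.35 (edgeR adjusted p = 0.219).

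WRKY22 and WRKY29, textbook targets of the kinase cascade that starts at the flagellin receptor, did not pass in either line, and their libraries overlapped. WRKY22 had 7.07, 6.75 and 7.03 CPM in the RNAi-ASCO-labelled libraries, 8.04, 6.98 and 6.92 CPM in 35S-ASCO, and 6.94, 5.64 and 8.91 CPM in WT. WRKY29 had 7.22, 7.16 and 7.58 CPM in the RNAi-ASCO-labelled libraries, 5.96, 7.96 and 9.06 CPM in 35S-ASCO, and 8.81, 7.38 and 6.83 CPM in WT. The log2 fold changes lay between -0.06 and 0.04; the SE of each was close to 0.15. WRKY15, the highest member in WT and known from oxidative and osmotic stress, had 56.9, 62.4 and 66.1 CPM in the RNAi-ASCO-labelled libraries, 90.7, 70.1 and 66.5 CPM in 35S-ASCO, and 69.5, 68.5 and 64.3 CPM in WT. Both lines overlapped WT, at log2 fold changes of -0.12 (edgeR adjusted p = 0.503) and 0.17 (edgeR adjusted p = 0.45).

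By family group, the members of group III stood highest relative to WT. Their median log2 fold change was 0.60 in the RNAi-ASCO-labelled libraries, with 5 of 8 above 0, and 1.36 in 35S-ASCO, with 7 of 8 above 0. In 35S-ASCO, WRKY30, WRKY41, WRKY46, WRKY53 and WRKY55 were far higher in replicate 1 than in the mean of the other libraries of that line. The 35S-ASCO median therefore depends on replicate 1, and it was not recomputed without that library. Only WRKY70 passed in either line, and the SEs of the low members were large. WRKY46, which acts with WRKY70 and WRKY53 in basal resistance and was singled out after its values were seen, had 2.76, 2.07 and 1.43 CPM in the RNAi-ASCO-labelled libraries, 6.60, 1.65 and 0.593 CPM in 35S-ASCO, and 0.514, 1.17 and 0.677 CPM in WT. The libraries labelled RNAi-ASCO were all above WT, and 35S-ASCO replicate 3 was within WT. WRKY30, known from oxidative stress, had 0.0892, 0.175 and 0.155 CPM in the RNAi-ASCO-labelled libraries, 7.32, 0.448 and 0.183 CPM in 35S-ASCO, and 0.0734, 0.0636 and 0.643 CPM in WT. Its level in 35S-ASCO was that of 1 library. WRKY30 held only 3, 8 and 9 pairs in the RNAi-ASCO-labelled libraries and 2, 6 and 37 pairs in WT. Replicate 1 of WT was thus under the floor of 3 pairs. Medians of the other groups lay between -0.17 and 0.08 in the RNAi-ASCO-labelled libraries and between -0.07 and 0.32 in 35S-ASCO.

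The direct comparison of the 2 lines tests whether their levels differ. Replicates 1 and 2 of RNAi-ASCO are labelled 4 days and all 35S-ASCO libraries 16 days. Genotype and age label can therefore not be told apart in this comparison. Of 57 members, 3 passed in 35S-ASCO against the RNAi-ASCO-labelled libraries (5.26%, against 6.75% of all genes), all 3 with higher levels in 35S-ASCO (against 3.2% of all genes). No member passed with a lower level (3.55% of all genes did), where 1 reached an unadjusted p under 0.05 in edgeR and 1, WRKY3, passed in DESeq2. WRKY3 also passed in edgeR with only the 6 libraries compared, with upper-quartile scaling, with single-read counts, and without RNAi-ASCO replicate 3, WT replicate 2 or WT replicate 3. Groups did not overlap at 15 members (26.3%, against 31.4% of all genes), 13 with higher and 2 with lower levels in 35S-ASCO. The background shares of these directions were 15.6% and 15.8%.

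WRKY39 had 72.3, 73.4 and 75.9 CPM in 35S-ASCO, against 61.9, 61.2 and 62.9 CPM in the RNAi-ASCO-labelled libraries. The 3 genotypes of this gene did not overlap, with 35S-ASCO between the RNAi-ASCO-labelled libraries and WT. The log2 fold change between the lines was 0.25 (SE 0.043 and adjusted p = 0.00947 by edgeR), and the call was lost without RNAi-ASCO replicate 2. Against WT its value in 35S-ASCO was -0.13 (SE 0.043 and adjusted p = 0.165 by edgeR). WRKY8 (AT5G46350, chr5:18801164-18804056), known from salt stress and defence, had 1.14, 1.77 and 1.32 CPM in 35S-ASCO, against 0.624, 0.611 and 0.689 CPM in the RNAi-ASCO-labelled libraries. WT lay between the lines with 0.734, 0.880 and 0.886 CPM. The log2 fold change between the lines was 1.10 (SE 0.215 and adjusted p = 0.0167 by edgeR), and the call was lost without 35S-ASCO replicate 2, RNAi-ASCO replicate 1 or RNAi-ASCO replicate 2. WRKY25 (AT2G30250, chr2:12903208-12905338), a group I relative of WRKY33 known from heat tolerance, had 37.5, 26.1 and 23.3 CPM in 35S-ASCO, against 16.9, 19.1 and 19.4 CPM in the RNAi-ASCO-labelled libraries. Replicate 1 of 35S-ASCO was the highest. Its log2 fold change was 0.65 (SE 0.16 and adjusted p = 0.0402 by edgeR), and the call was lost in 5 of 9 fits that left out one library: each of the 3 libraries labelled RNAi-ASCO, 35S-ASCO replicate 2 and WT replicate 1. It was also lost with only the 6 libraries compared (adjusted p = 0.0565). WRKY18 did not pass, at 1.04 (SE 0.309 and adjusted p = 0.0775 by edgeR), although its groups did not overlap, and it passed with only the 6 libraries compared (adjusted p = 0.0438) and without RNAi-ASCO replicate 3 or WT replicate 3. Without the 4-day libraries none of the 57 members passed in edgeR and 2 reached an unadjusted p under 0.05, and the log2 fold changes were 0.23 for WRKY39, 1.004 for WRKY8 and 0.58 for WRKY25.

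Spread within a genotype was described by the coefficient of variation, the SD divided by the mean over 3 libraries. Its median over the 57 members was 0.0817 in the RNAi-ASCO-labelled libraries, 0.126 in 35S-ASCO and 0.109 in WT, against 0.0648, 0.0645 and 0.0794 over all genes tested in the same order of genotypes. Counting error alone would give a median of 0.0561, 0.0449 and 0.0522 for the members. A coefficient above 0.5 was found at 7 members in 35S-ASCO (12.3%, against 1.96% of all genes), at 1 in the RNAi-ASCO-labelled libraries (WRKY55; 1.75%, against 2.60%) and at 1 in WT (WRKY30; 1.75%, against 3.42%). The 7 members in 35S-ASCO were WRKY30, WRKY40, WRKY41, WRKY46, WRKY50, WRKY53 and WRKY55, of which 5 belong to group III. All 7 were highest in replicate 1. The level there over the mean of the other 2 was 23.2 times for WRKY30, 5.88 times for WRKY46, 4.03 times for WRKY55, 3.74 times for WRKY40, 3.24 times for WRKY41, 3.14 times for WRKY53 and 2.58 times for WRKY50. Of all 57 members 27 (47.4%) were highest in 35S-ASCO replicate 1, against 37.9% of all genes. WRKY41, WRKY50 and WRKY55 stayed under 1 CPM in every library. Counting error alone would give WRKY55 a coefficient of 0.656 in the RNAi-ASCO-labelled libraries, where 0.707 was measured, and WRKY50 one of 0.450 in 35S-ASCO, where 0.661 was measured and replicate 2 held 2 pairs, under the floor.

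**Figure D4:**
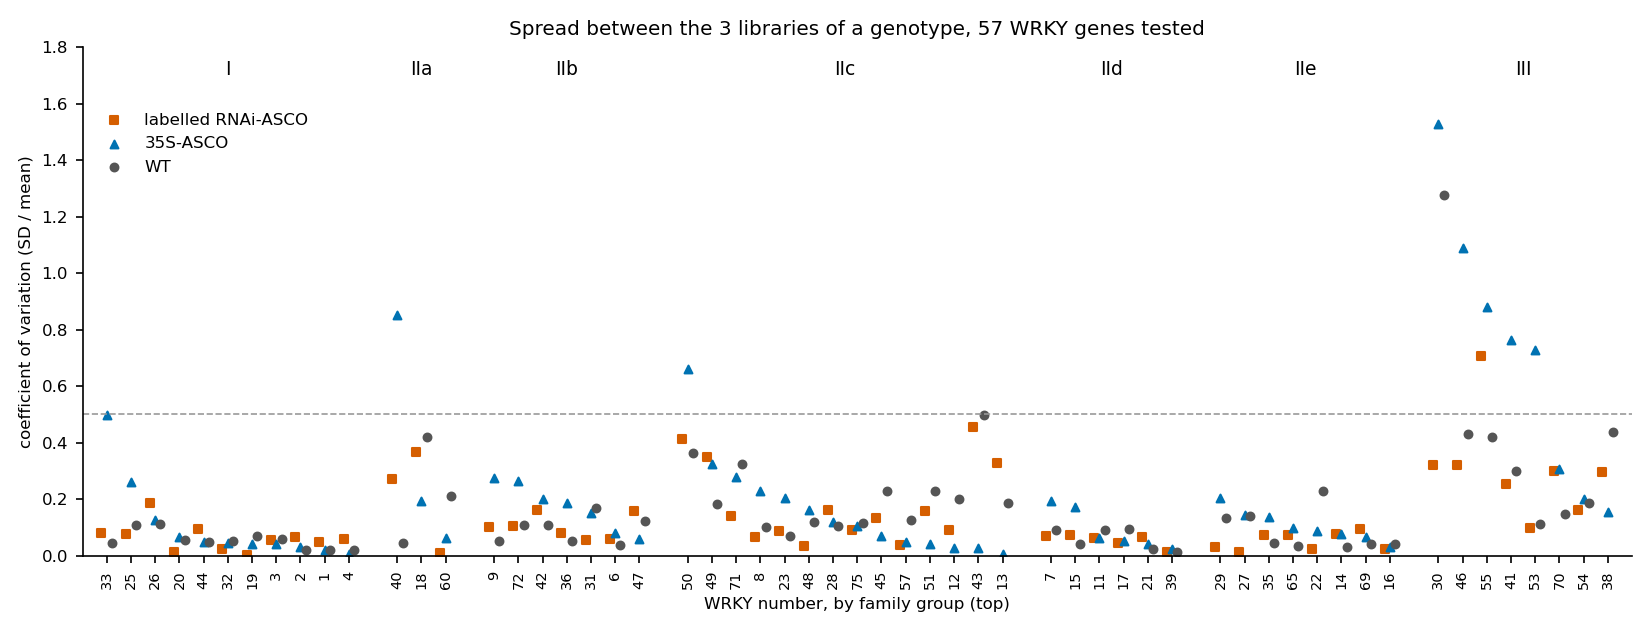
Coefficient of variation (SD divided by mean, n = 3) of the 57 tested WRKY genes within each genotype, by family group. The dashed line marks 0.5. The 7 triangles above it are 35S-ASCO values and 5 of them lie in group III, whereas the genes of group IId stay below 0.2 in all 3 genotypes.

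Genes outside the family were followed from lists. Rapid stress genes are known to respond quickly to touch, cold and wounding, as are several members. Of 19 rapid stress and touch response genes, 9 rose in the RNAi-ASCO-labelled libraries (against 6.96% of all genes) and none fell. In 35S-ASCO 3 rose, against 1.36% of all genes (edgeR, adjusted p under 0.05 in both lines). For falling genes the count at an unadjusted p under 0.05 and the count in DESeq2 were also 0 in both lines. Those named are ORA47, ERF5, ERF1A and ZAT10 in the RNAi-ASCO-labelled libraries, with log2 fold changes of 3.43, 1.20, 1.02 and 2.05, and ORA47, ERF1A and CML41 in 35S-ASCO, with 4.11, 1.31 and 2.48. All encode transcription factors except CML41, a calmodulin-like protein. Summed over the list, the level was 562, 484 and 709 CPM in the RNAi-ASCO-labelled libraries, 926, 848 and 485 CPM in 35S-ASCO, and 365, 352 and 534 CPM in WT. WT replicate 3 was high, so both lines overlapped WT. No gene of the list was at 0 in all libraries. The count of risen genes was 0 in the RNAi-ASCO-labelled libraries without the 4-day libraries and between 2 and 10 when one library was left out, and in 35S-ASCO it was 1 without replicate 1 and between 0 and 6 when one library was left out. Their part in the results for WRKY33, WRKY40, WRKY46, WRKY53 and WRKY70 was not tested.

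**Figure D5:**
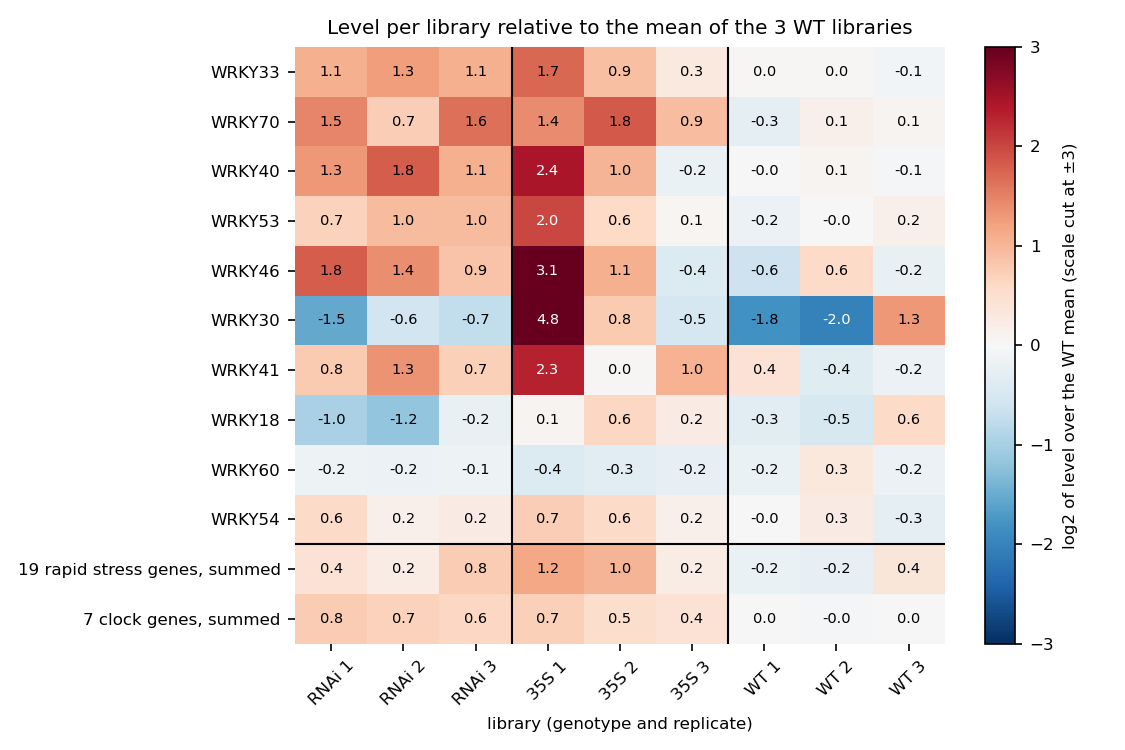
Log2 of the level in each library over the mean of the 3 WT libraries for 10 WRKY genes and for the summed levels of 19 rapid stress genes and 7 clock genes, with libraries of the line labelled RNAi-ASCO on the left, 35S-ASCO in the middle and WT on the right. Colour stops at ±3 while the printed values do not. The 10 genes were picked after their values were seen. 35S-ASCO replicate 1 is the highest library of its line for WRKY33, WRKY40, WRKY53, WRKY46, WRKY30, WRKY41 and WRKY54, and the clock sum is above WT in all 6 libraries of the lines.

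Clock genes moved as well. Of 7 genes of the circadian clock, 4 rose in the RNAi-ASCO-labelled libraries (against 6.96% of all genes) and 4 rose in 35S-ASCO (against 1.36%). In each line these were TOC1, PRR7, ELF4 and GI. Summed levels were 448, 430 and 407 CPM in the RNAi-ASCO-labelled libraries, 438, 380 and 357 CPM in 35S-ASCO, and 269, 257 and 269 CPM in WT, without overlap between either line and WT. GI, an evening-phased clock gene, had 69.0, 63.6 and 50.5 CPM in the RNAi-ASCO-labelled libraries, 40.4, 32.5 and 27.0 CPM in 35S-ASCO, and 13.7, 10.2 and 10.9 CPM in WT. All 3 genotypes stood apart, with log2 fold changes against WT of 2.41 (edgeR adjusted p = 0.000111) and 1.54 (edgeR adjusted p = 0.00613). Without the 4-day libraries 2 of the 7 rose in each line. When one library was left out, 4 or 5 rose in the RNAi-ASCO-labelled libraries and 1 to 5 in 35S-ASCO. The part of the clock genes in the WRKY results was not tested.

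Upstream of the family, 18 genes for kinases and for proteins that bind WRKY factors were followed. In the RNAi-ASCO-labelled libraries, MKK9 rose (log2 fold change 0.94, edgeR adjusted p = 0.0144) while MKK1 (-0.71, edgeR adjusted p = 0.0032) and MPK4 (-0.21, edgeR adjusted p = 0.0144) fell. Of all genes, 6.96% rose and 4.82% fell in these libraries. Without the 4-day libraries none of the list passed there, and with one library left out 0 to 2 rose and 1 to 3 fell. MKK9 acts upstream of MPK3 and MPK6, and MKK1 acts upstream of MPK4, a kinase found in a complex with WRKY33. MPK3 had 144, 135 and 160 CPM in the RNAi-ASCO-labelled libraries, 199, 163 and 114 CPM in 35S-ASCO, and 98.2, 99.2 and 103 CPM in WT. Both lines lay above WT without passing (log2 fold change 0.55, edgeR adjusted p = 0.0553, and 0.66, edgeR adjusted p = 0.0725). None of the 18 passed in 35S-ASCO in edgeR, where 8 reached an unadjusted p under 0.05 (7 higher, 1 lower), as did 17.4% of all genes. In DESeq2 4 passed (3 higher, 1 lower). MPK11, highest in 35S-ASCO replicate 1, and MKK1 and MEKK1, named after their values were seen, were higher in 35S-ASCO than in the RNAi-ASCO-labelled libraries. They were 3 of 18, against 3.2% of all genes in edgeR. Their log2 fold changes were 1.83, 0.65 and 0.29. These 3 calls became 1 without 35S-ASCO replicate 1 and 0 without the 4-day libraries.

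Downstream, 23 genes known as targets of WRKY factors were followed, of which 18 had enough pairs to be tested. ACS6, an ethylene synthesis gene regulated by WRKY33, rose in the RNAi-ASCO-labelled libraries, with 51.1, 31.5 and 41.0 CPM there, 31.0, 26.3 and 18.1 CPM in 35S-ASCO, and 14.5, 17.5 and 21.5 CPM in WT. The libraries labelled RNAi-ASCO stood above all WT libraries and 35S-ASCO overlapped WT, at log2 fold changes of 1.19 (edgeR adjusted p = 0.0101) and 0.48 (edgeR adjusted p = 0.302). It was the only one of the 18 to pass against WT in edgeR, where 6.96% of all genes rose in the RNAi-ASCO-labelled libraries. In DESeq2 3 passed, all higher in the RNAi-ASCO-labelled libraries. Without the 4-day libraries 0 passed there, and without 35S-ASCO replicate 1 there were 3 higher and 1 lower. PAD3, the last enzyme of camalexin synthesis and the best-known target of WRKY33, had 23.7, 21.5 and 23.3 CPM in the RNAi-ASCO-labelled libraries, 22.5, 29.1 and 27.2 CPM in 35S-ASCO, and 18.6, 20.8 and 6.22 CPM in WT. Both lines lay above WT, where replicate 3 was far below the other 2, and neither difference passed (edgeR adjusted p = 0.286 and 0.256). In 35S-ASCO 0 of 18 passed in edgeR, where 8 reached an unadjusted p under 0.05 (6 higher, 2 lower), as did 17.4% of all genes. In DESeq2 4 passed (3 higher, 1 lower). SARD1 and ACS2, named after their values were seen, were higher in 35S-ASCO than in the RNAi-ASCO-labelled libraries, at log2 fold changes of 1.13 (edgeR adjusted p = 0.0362) and 0.99 (edgeR adjusted p = 0.037), and none of the list passed as higher in that comparison without 35S-ASCO replicate 1 or without the 4-day libraries. These were 2 of the 18 target genes, against 3.2% of all genes higher in 35S-ASCO than in the RNAi-ASCO-labelled libraries in edgeR. Of 5 senescence genes, NYE1 rose (log2 fold change 0.30, edgeR adjusted p = 0.037) and SAG21 fell (-0.58, edgeR adjusted p = 0.0266) in the RNAi-ASCO-labelled libraries. Of all genes, 6.96% rose and 4.82% fell there. Neither direction had a call without the 4-day libraries, and each fell to 0 in at least 1 fit with a library omitted. In 35S-ASCO 0 of the 5 passed in edgeR or in DESeq2 and 3 reached an unadjusted p under 0.05.

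Of the 13 WRKY genes outside the 59, 8 were tested and 0 passed in any of the 3 comparisons in edgeR or DESeq2, with 2 at an unadjusted p under 0.05, both lower in the RNAi-ASCO-labelled libraries. Their summed level was 39.9, 42.4 and 40.5 CPM in the RNAi-ASCO-labelled libraries, 40.5, 44.8 and 43.2 CPM in 35S-ASCO, and 44.95, 45.4 and 41.4 CPM in WT, and both lines overlapped WT.

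Counting could affect some members. In TAIR10.1, 12 of 59 members overlap another annotated gene on the opposite strand, and whether pairs were assigned by strand is not given in the sources used here, so the values of those members are uncertain. WRKY53 shares 341 bases with AT4G23800, which averaged 98.0, 89.7 and 92.6 CPM in the RNAi-ASCO-labelled libraries, 35S-ASCO and WT and did not pass in either line. WRKY69 shares 373 bases with AT3G58720, whose log2 fold change was 0.40 in the RNAi-ASCO-labelled libraries (edgeR adjusted p = 0.0592), opposite in sign to that of WRKY69. WRKY69 also shares 345 bases with the noncoding RNA gene AT3G09145, and WRKY33 shares 272 bases with the noncoding RNA gene AT2G08965, neither of which was analysed here. The longest overlap was 517 bases between WRKY41, which averaged 0.270 CPM in the RNAi-ASCO-labelled libraries, 0.367 CPM in 35S-ASCO and 0.137 CPM in WT, and AT4G11080, which averaged 19.4, 19.7 and 21.4 CPM in the same genotypes. WRKY33 shares a further 26 bases with AT2G38480, which averaged 3.84 CPM in the RNAi-ASCO-labelled libraries, 3.63 CPM in 35S-ASCO and 3.84 CPM in WT. Sharing of sequence with other loci was small: of 50-base exon windows, 58 of 59 members had none elsewhere in the genome, and WRKY40 had 5 of 115 (4.35%).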

How the data were processed

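Polyadenylated RNA from 9 seedling libraries was sequenced as stranded read pairs, per the labels' protocols. The deposited tables give counts of pairs for each gene model, which the authors made with sam2pkm, per the file headers, which state that properly paired reads on the same model were counted and that reads with equally good alignments were removed. TopHat2, Bowtie2 and TAIR10 are named in the submitters' processing notes without their roles. Model length in bases, also deposited, was used for levels per kilobase. The tables hold 1 model per gene, so transcript forms were not analysed here.

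Groups and replicate numbers came from sample titles. Pair counts were tested with edgeR 4.0.16 in R 4.3.3 (glmQLFit and glmQLFTest, TMM scaling, filterByExpr by group) on all 9 libraries with genotype as the only factor, and p-values were adjusted by Benjamini-Hochberg over 22719 genes. SEs were derived from the F statistic. The procedure was tested on simulated counts. No 2 libraries of a group agreed within sampling noise. Floors cover counting error only.

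Named in every library are members past an adjusted p of 0.05 in any comparison, WRKY18, WRKY22, WRKY29, WRKY33, WRKY40, WRKY53, WRKY60 and WRKY70 as textbook members, and the 3 of highest mean level per kilobase. Other members are given by family group with examples, and list genes where they passed against WT, at most 4 a list and comparison by smallest p. WRKY11, WRKY16, WRKY19, WRKY44, WRKY46, WRKY54 and further list genes were named after their values were seen, and MPK3, PHO1 and PAD3 for their known link to a member. The members, lists and this rule were chosen with earlier results of these data known. W-box words and exon windows were searched in the RefSeq genome of TAIR10.1, whose identifiers matched 32835 of the 33602 models. Of the members, 7 have a model length equal to a RefSeq transcript, so the annotation release counted by the authors may differ. Alternatives were DESeq2 1.42.0, other scalings, no filter, only the libraries compared, the replicate number, counts of single reads, fits without the 4-day libraries, and leaving out each library.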

Additional observations from a re-analysis of the deposited data

Results flagged for a closer look

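WRKY39, WRKY8 and WRKY25 are listed here because the test of the difference between the 2 lines passed for them, in 35S-ASCO against the RNAi-ASCO-labelled libraries. The fitted log2 fold change was 0.253 for WRKY39, 1.1 for WRKY8 and 0.651 for WRKY25. WRKY39, WRKY8 and WRKY25 had coefficients of variation of at most 0.0246, 0.229 and 0.259 in any genotype, and WRKY25 was highest in 35S-ASCO replicate 1. A fit without the 4-day libraries, where the remaining age labels are the same, leaves 1 library labelled RNAi-ASCO. The log2 fold changes there were 0.23 for WRKY39, 1.004 for WRKY8 and 0.58 for WRKY25. The differences at the same age label therefore rest on that library.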

How the results depend on the processing

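For the RNAi-ASCO-labelled libraries against WT, the 6 members past the threshold became 0 without the 4-day libraries and between 1 (without WT replicate 1) and 9 (without 35S-ASCO replicate 1) when one library was left out. They were 5 with the replicate number as a block, 5 to 8 under the other alternatives of method, and 8 with DESeq2. For 35S-ASCO against WT, the 1 member became 0 with only the 6 libraries compared, 0 with the replicate block, 0 without the 4-day libraries, 2 with DESeq2 and between 0 and 4 (without 35S-ASCO replicate 3) when one library was left out. For 35S-ASCO against the RNAi-ASCO-labelled libraries, the 3 members became 0 without the 4-day libraries, 5 with DESeq2 and between 0 (without RNAi-ASCO replicate 2) and 5 (without WT replicate 3) when one library was left out, and were 3 with the replicate block, where WRKY25 was lost and WRKY18 gained. With the block WRKY69 was lost in the RNAi-ASCO-labelled libraries against WT (adjusted p = 0.071). The replicate numbers do not pair the libraries: over 9 same-numbered pairs the deviations correlated between -0.0232 and 0.0763. Counts of members at an unadjusted p under 0.05 in the 3 comparisons without the 4-day libraries were 6, 17 and 2. No log2 fold change of a named member that passed the threshold changed sign under any alternative run. Shares of all genes were not recomputed for any alternative, here or above, so these counts have no background beside them. The cause of these shifts was not tested. Fits without the 4-day libraries, with a single library left out or with only 6 libraries have fewer residual degrees of freedom. Depth limits the members under 1 CPM most, as at WT replicate 1 a floor of 3 pairs stands at 0.111 CPM.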
